A study of Rattus norvegicus with 12 samples.

Results

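Kidney cortex was compared between male rats made diabetic before puberty and nondiabetic rats of the same age, on 6 of the 12 arrays of the series. The 6 arrays were chosen by their titles, as 3 from diabetic and 3 from nondiabetic rats at 10 weeks of age. The other 6 arrays are from rats at 20 weeks, whose diabetes began at 14 weeks, and they enter the fit for its estimate of the spread and the closing comparison of ages. Diabetes was induced at 4 weeks of age with an intravenous dose of 65 mg/kg of streptozocin, which kills the pancreatic cells that make insulin, and the cortex was taken 6 weeks later. The nondiabetic rats were injected with vehicle at the same age. An implanted pellet followed 3 days after the injection in both groups, holding insulin palmitate in diabetic rats and palmitate vehicle in nondiabetic rats. All rats ate and drank freely, and per the labels the glucose in blood of the diabetic groups was held between 350 and 450 mg/dl. As a model of diabetes the comparison is limited by 3 facts of the design: no group had streptozocin without diabetes, the insulin pellet was given to diabetic rats, and the rats are described as littermates without a statement of which array came from which rat. Effects of the toxin, of the pellet and of high glucose therefore cannot be told apart, and a p-value here reflects the spread between samples, which may be technical.

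The cortex holds the glomeruli, where podocytes form the filter, and is made mostly of proximal tubules, which take back filtered glucose, amino acids and phosphate and burn mainly fatty acids for energy. In uncontrolled diabetes the proximal tubule receives more glucose than it can take up, fatty acids become the main fuel of many tissues, and low insulin and growth factor signals accompany poor growth in the young. The kidney is also known to enlarge early in diabetes, and signals of the transforming growth factor beta (TGF-beta) family and extracellular matrix genes are much studied in its later scarring.

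Each array gives a signal, a linear brightness with no fixed unit, for every probe set, and levels of different probe sets are not comparable. The defining markers of cortex were bright on all 6 arrays: Slc34a1, the phosphate carrier of the early proximal tubule, gave 27459.5, 28159 and 26564 in the nondiabetic and 24144, 29451 and 25752 in the diabetic arrays, and Lrp2, its endocytic receptor, 21596, 23588 and 20926 and 19491, 21846 and 20933. The correlation of log2 signals between arrays of 1 group lay between 0.955 and 0.973, and that between groups between 0.951 and 0.976. As measures of RNA quality, the Gapdh control probe sets had a 3'/5' ratio of 1.41 to 1.46 in nondiabetic and 1.44 to 1.495 in diabetic arrays. The ratio of beta-actin was higher, at 6.75, 7.47 and 6.85 in nondiabetic and 6.3, 8.57 and 6.58 in diabetic arrays. The groups overlapped in both ratios, and diabetic replicate 2 had the highest value of the 6 arrays in both. An array of each group was apart in some way. The label of diabetic replicate 1 names the vehicle pellet in place of the insulin pellet. On the first principal component of the 6 arrays (34.2% of the variance), nondiabetic replicate 3 lay at 13.0, among the diabetic arrays at 10.4 to 27.5, while nondiabetic replicates 1 and 2 lay at -42.1 and -29.9. The effect of each array on the results is given with them.

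Of 18625 probe sets tested with limma, 57 (0.306%) differed between diabetic and nondiabetic rats at a Benjamini-Hochberg adjusted p under 0.05, which is what "called", "rose" and "fell" mean here. Of these, 23 (0.123%) rose and 34 (0.183%) fell, and 18 did so by at least 2-fold. Centring each array on its median, which shifted the median difference of all probe sets by 0.11 on the log2 scale, gave 34 higher and 9 lower. The 57 probe sets named 45 genes, 18 that rose and 27 that fell, and 12 named no single gene. In all 57 the 3 diabetic arrays lay wholly on 1 side of the 3 nondiabetic arrays, but no overlap of this kind was common: it held for 956 of the 10581 genes tested in the higher direction (9.04%) and 948 in the lower (8.96%). At an unadjusted p under 0.05, 2021 probe sets differed, and the median standard error (SE) of a log2 difference was 0.18. All differences below are diabetic minus nondiabetic on the log2 scale, with the SE of the fit.

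**Figure D1:**
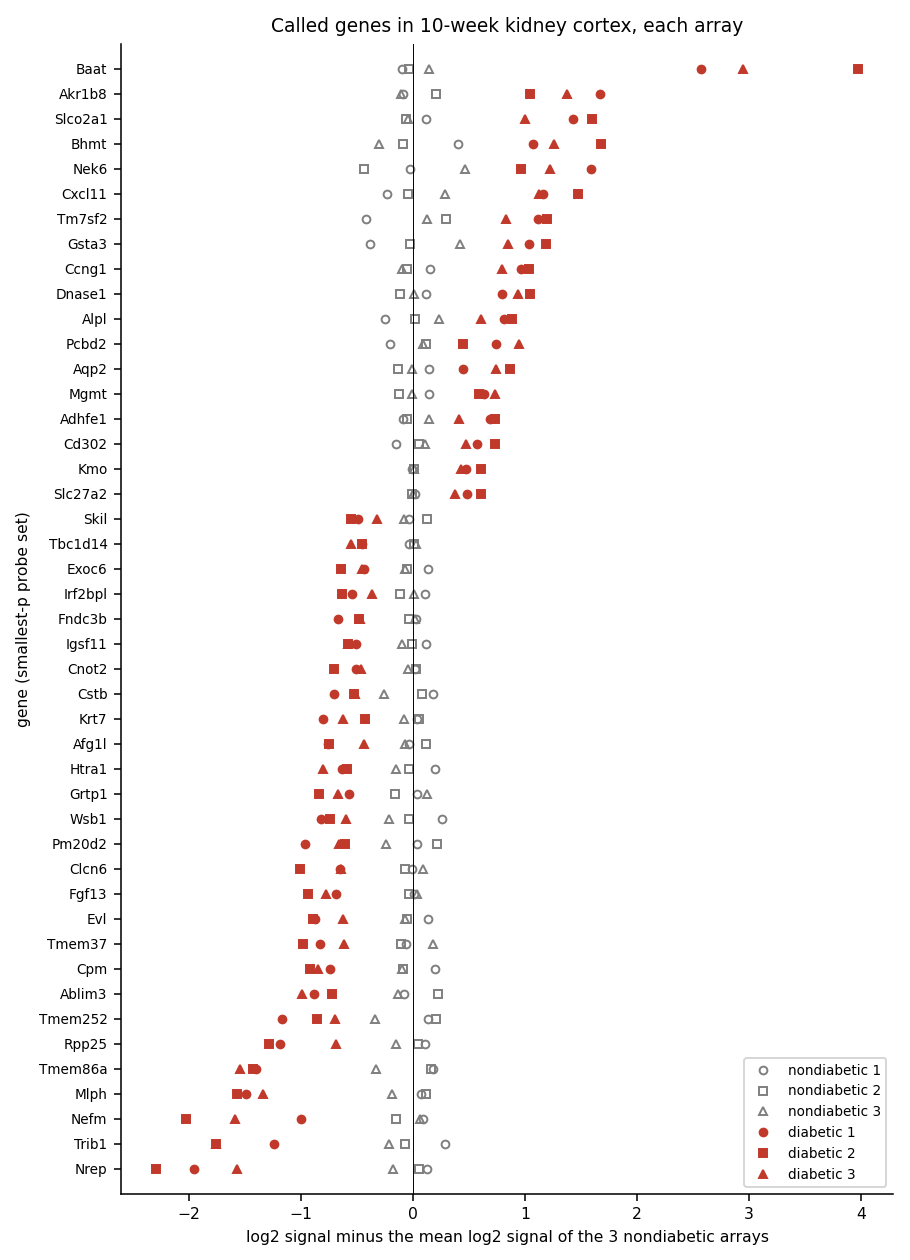
Log2 signal of each of the 45 called genes on each of the 6 arrays, minus the gene's mean over the 3 nondiabetic arrays (open grey symbols are nondiabetic and filled red symbols diabetic arrays, 1 symbol shape per replicate). In every row the red symbols lie to 1 side of the grey ones, from Baat (difference 3.16) at the top to Nrep (-1.94) at the bottom, and the spread within a group is widest for Baat.

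The called gene with the largest rise was Baat (probe set 1387508_at), which joins bile acids to taurine or glycine. Its signals were 92.2, 96.2 and 109 in the nondiabetic arrays and 586, 1554 and 760.1 in the diabetic arrays. The nondiabetic signals lie near the limit of 70.9 below which probe sets were left out as dim, so the size of the rise, 3.16 ± 0.39 or 8.94-fold, is uncertain, while every diabetic array was at least several times brighter (adjusted p = 0.00714). Baat stayed called in 5 of the 6 fits that left out 1 of these arrays. Kmo, the kynurenine monooxygenase of tryptophan breakdown, changed little but evenly: 4094, 4156 and 4142 against 5745, 6276 and 5561, a difference of 0.50 ± 0.07 (adjusted p = 0.0106), called in 4 of the 6 fits.

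Baat and Kmo were also the only called genes with a matched promoter window that holds the letters CAAAGTCCA, a site of the type bound by the liver and kidney nuclear receptor HNF4. RefSeq promoter windows (build GRCr8, 250 bases before to 50 after the gene start) matched 39 of the 45 called genes by symbol. On either strand the letters occur in 131 of 33469 windows (0.391%). The 250 bases before each start are shown 5' to 3' on the gene's strand, with the match in capitals, since these are rare letters shared by genes that rose together. Baat lies at chr5:68656138-68656387 (minus strand), with the match starting 90 bases before the gene start, and Kmo at chr13:90089271-90089520 (plus strand), with the match on the opposite strand and starting 74 bases before. Neither match overlaps another motif searched.
Baat: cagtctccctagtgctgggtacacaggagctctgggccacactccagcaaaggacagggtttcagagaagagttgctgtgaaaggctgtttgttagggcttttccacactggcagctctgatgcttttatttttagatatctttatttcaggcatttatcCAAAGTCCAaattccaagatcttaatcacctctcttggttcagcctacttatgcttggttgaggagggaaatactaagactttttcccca
Kmo: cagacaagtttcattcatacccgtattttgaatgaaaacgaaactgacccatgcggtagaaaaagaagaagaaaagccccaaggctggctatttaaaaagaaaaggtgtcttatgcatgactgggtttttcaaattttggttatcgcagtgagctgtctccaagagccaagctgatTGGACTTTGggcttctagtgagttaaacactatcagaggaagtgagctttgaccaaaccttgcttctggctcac
The other motifs searched, on both strands, stood in these windows about as follows. A called gene was counted if any of its windows matched, while the share of all windows counts each window. The shares are thus in unlike units, and a gene with several windows has more chances of a match. The antioxidant response core TGACNNNGC was in 8 of the 39 called genes (20.5%) and 12.1% of all windows, the clock E-box CACGTG in 5 (12.8%) and 6.42%, and the nuclear receptor core AGGTCA in 9 (23.1%) and 16.2%. The box CAGACA, of the type bound by Smad proteins, was in 11 (28.2%) and 21.1%, TATAAA in 4 (10.3%) and 14.2%, TGATGNAA, of the amino acid response type, in 1 (2.56%) and 3.98%, and the sterol response type TCACNCCAC in 0 and 1.12%. A match is a description of these letters in the window, and binding was not measured.

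Bhmt, which remethylates homocysteine with betaine, went from 248, 177 and 152 to 396, 604 and 449.7, a rise of 1.34 ± 0.25 (adjusted p = 0.0473). Akr1b8, an aldo-keto reductase of reactive aldehydes, went from 134, 164 and 132 to 454, 293 and 369 (1.36 ± 0.24, adjusted p = 0.0384). Gsta3, a glutathione transferase, went from 228, 291 and 396 to 609.7, 678 and 534 (1.02 ± 0.19, adjusted p = 0.0463). In each of these genes all 3 diabetic arrays were above all 3 nondiabetic arrays, but the calls were fragile: Bhmt and Akr1b8 were called in none and Gsta3 in 1 of the 6 fits with 1 array left out, where the adjusted p reached 0.199, 0.182 and 0.191. Tm7sf2, a reductase of cholesterol synthesis, rose by 1.05 ± 0.18 from 358, 589 and 522 to 1038, 1098 and 849.9. Adhfe1, a mitochondrial transhydrogenase of hydroxybutyrate, rose by 0.61 ± 0.10, Pcbd2, a pterin dehydratase, by 0.71 ± 0.13, and Slc27a2, which activates very long chain fatty acids, by 0.49 ± 0.08. Other probe sets of Adhfe1 and Pcbd2 gave smaller differences that did not pass, 0.40 ± 0.24 (adjusted p = 0.574) and 0.28 ± 0.09 (adjusted p = 0.286). Slc27a2 was among the brightest of the called probe sets and its groups were tight, with 13886, 13674 and 13761 in nondiabetic and 19263, 20929 and 17812 in diabetic arrays.

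Slco2a1, which carries prostaglandins into cells, went from 445, 395 and 398 to 1108, 1248 and 823, a rise of 1.34 ± 0.22 (adjusted p = 0.0291), and another of its probe sets gave 1.53 ± 0.43 without passing. Aqp2, the water channel that vasopressin regulates in the collecting duct, went from 5191, 4292 and 4664 to 6405, 8559 and 7867 (0.68 ± 0.12, adjusted p = 0.0433) and was called in none of the 6 fits with an array left out (adjusted p up to 0.195). Dnase1, a secreted DNA-cutting enzyme of the tubule, had 11458, 9776 and 10665 in nondiabetic and 18329.7, 21932 and 20296 in diabetic arrays. Its rise of 0.92 ± 0.10 (adjusted p = 0.00327) was called in all 6 such fits. Ccng1, cyclin G1, a target of the tumour suppressor p53, rose by 0.93 ± 0.13 from 3318, 2884 and 2789 to 5822, 6119 and 5164. Mgmt, which removes alkyl groups from guanine in DNA, rose by 0.65 ± 0.10 from 524, 435 and 471 to 737, 716 and 787. The chemokine Cxcl11, induced by interferon, rose by 1.25 ± 0.16 from 452, 516 and 646 to 1188, 1479 and 1161 (adjusted p = 0.00827). The mitotic kinase Nek6 rose by 1.26 ± 0.21, the alkaline phosphatase Alpl by 0.76 ± 0.12 and the lectin receptor Cd302 by 0.59 ± 0.09.

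The largest fall was in Nrep (probe set 1371412_a_at), a small protein found in neurons that regrow. Its signals were 10034, 9529 and 8119 in nondiabetic and 2369, 1873 and 3097 in diabetic arrays, a difference of -1.94 ± 0.19 or 3.84-fold lower (adjusted p = 0.00151). Tmem86a, a lysoplasmalogenase of membrane lipids, fell from 1753, 1738 and 1233 to 587, 575 and 533 (-1.46 ± 0.16, adjusted p = 0.00327), with another probe set at -1.22 ± 0.25 (adjusted p = 0.068). Both were called in all 6 fits with an array left out, as were Dnase1 and 2 probe sets with no gene name. Of those, probe set 1372911_at fell by 1.77 on the log2 scale, from 3391, 2880.3 and 2634 to 843, 653 and 1179.6. The other, probe set 1378163_at, had the largest difference of all the called probe sets, 3.25 ± 0.30, from 61.7, 44.1 and 42.1 to 511, 482 and 403 (adjusted p = 0.00151). Its nondiabetic signals all lie under the dim limit of 70.9. It passed the filter through its other arrays, and the size of its difference is uncertain.

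Trib1, a pseudokinase that directs proteins to degradation, fell from 212, 165 and 149 to 73.4, 51.3 and 51.2 (-1.59 ± 0.26, adjusted p = 0.0291), with the diabetic signals below the dim limit on 2 of 3 arrays. Nefm, the medium neurofilament subunit, went from 555, 471 and 545 to 261, 128 and 173 (-1.54 ± 0.26, adjusted p = 0.0294). Mlph, melanophilin, which links vesicles to motor proteins, went from 937, 968 and 785 to 318, 299 and 353 (-1.47 ± 0.20, adjusted p = 0.011). In these genes the highest diabetic signal was well below the lowest nondiabetic one, and without a single array their adjusted p reached 0.139, 0.131 and 0.0677. Rpp25, a subunit of the RNA-processing enzymes RNase P and MRP, fell by 1.05 on the log2 scale and Tmem252, a membrane protein of the kidney, by 0.91. Actin and membrane traffic genes were among the falls: the actin binders Ablim3 (-0.87 ± 0.15) and Evl (-0.80 ± 0.12), the exocyst subunit Exoc6 (-0.51 ± 0.09), and Tbc1d14 (-0.49 ± 0.07) and Grtp1 (-0.70 ± 0.12), with the domain of Rab-regulating proteins. Proteases and their inhibitors were others: Htra1, a secreted serine protease (-0.68 ± 0.10), Cpm, carboxypeptidase M (-0.84 ± 0.15), Pm20d2, a dipeptidase (-0.75 ± 0.12), and Cstb, an inhibitor of cathepsins (-0.59 ± 0.10). Other probe sets of Ablim3, Evl and Cpm gave -0.95, -0.68 and -0.71 without passing.

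Among the remaining falls were the chloride transporter of endosomes Clcn6 (-0.77 ± 0.11, with another probe set at -0.29 ± 0.66), the channel-binding protein Fgf13 (-0.80 ± 0.14), Tmem37 (-0.81 ± 0.12), the mitochondrial ATPase Afg1l (-0.65 ± 0.10), the epithelial keratin Krt7 (-0.62 ± 0.10) and the adhesion protein Igsf11 (-0.56 ± 0.09). The deadenylase subunit Cnot2 (-0.56 ± 0.09), Fndc3b (-0.55 ± 0.09, with another probe set at -0.65 ± 0.36 that did not pass), Irf2bpl (-0.52 ± 0.09), Wsb1 of a ubiquitin ligase (-0.72 ± 0.13) and Skil (-0.46 ± 0.08) completed the list. Skil encodes SnoN, a repressor of Smad proteins, and went from 6201, 6929.6 and 5998 to 4526, 4324 and 5072 (adjusted p = 0.0409). The adjusted p of the 45 genes lay between 0.00151 and 0.0473, and the smallest called fold was 1.37. Of the 45, only Nrep, Tmem86a and Dnase1 stayed called whichever of the 6 arrays was left out.

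Functional classes were described over 30 lists of genes, each gene by its brightest tested probe set, beside the same values over all 10581 genes. Over all genes the median difference was 0.00, with quartiles of -0.14 and 0.13, 18 rose (0.17%) and 27 fell (0.255%), and at an unadjusted p under 0.05 696 were higher (6.58%) and 612 lower (5.78%). Calls were few in every list, and 15 of the 30 lists held none. The medians of 23 of the 30 lists lay above that of all genes. The lists were compiled with earlier results of these data known, so the count of called members depends on where such genes were placed. For example, the tubular enzyme Dnase1 is among the p53 and DNA damage genes, and Baat, which acts on bile acids, is under amino acid catabolism. The classes differ mainly in how many members had no overlap between the groups, which is to be read against 9.04% higher and 8.96% lower.

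**Figure D2:**
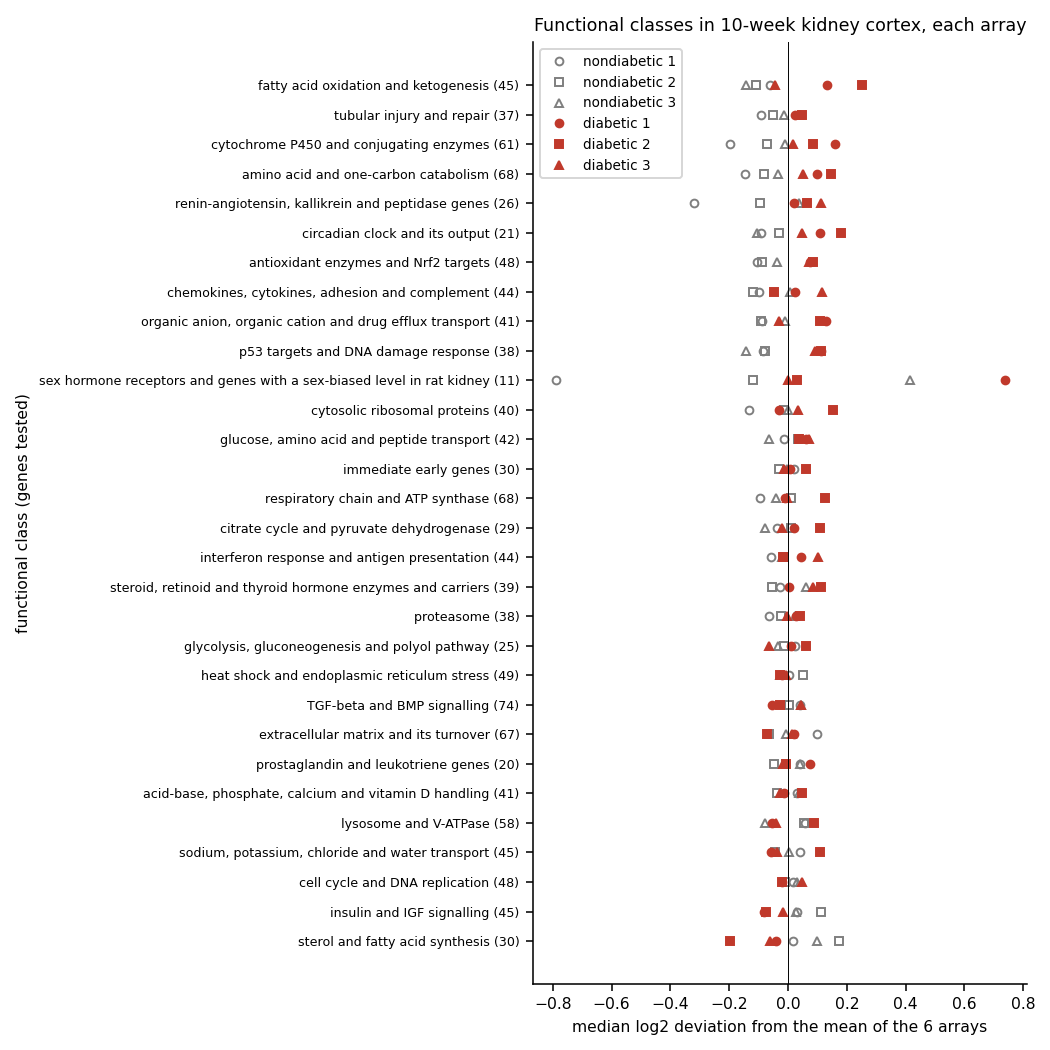
Median over the genes of each functional class of the log2 signal minus the gene's mean over the 6 arrays, for each array (open grey, nondiabetic, and filled red, diabetic, with 1 symbol shape per replicate, and the number of genes tested in brackets). Fatty acid oxidation has the largest class difference (median 0.25) and sterol and fatty acid synthesis the lowest (-0.19), most classes cluster near 0, and the list of genes with a sex-biased level varies most between arrays of 1 group.

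Genes that burn fatty acids lay above 0 in 32 of 45 members, most by a small amount. None of the 45 tested members of the fatty acid oxidation and ketogenesis list was called by limma. At an unadjusted p under 0.05, 20 were higher and 0 lower, 20 had no overlap in the higher direction (44.4%) and 0 in the lower, and the median difference was 0.25. Eci1, which isomerises unsaturated intermediates in mitochondria, gave 5754, 5800.1 and 4283 in nondiabetic and 8178, 12153 and 6977 in diabetic arrays (0.76 ± 0.18, adjusted p = 0.123). Decr1, a reductase for unsaturated fatty acids, gave 6731, 7087 and 6559 and 9996, 11317 and 7547 (0.48 ± 0.12, adjusted p = 0.147). In both the diabetic replicate 2 was the brightest array of the 6. Slc25a20 and Cpt1a, which bring fatty acids into mitochondria, differed by 0.41 ± 0.10 and 0.33 ± 0.09, and Acadl, a dehydrogenase of long chains, by 0.33 ± 0.09 (adjusted p = 0.157, 0.194 and 0.167). Another probe set of Cpt1a gave 0.03 ± 0.28. Without diabetic replicate 2 the median of the list was 0.11, and with any other of the 6 arrays left out it was 0.22 to 0.30. The 5 tested markers of fat cells, which also handle fatty acids, lay above 0 too (median 0.17), and their part in the list's difference was not tested.

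The classes next to it in fuel use moved less. Of the 29 citrate cycle and pyruvate dehydrogenase genes, none was called by limma, 5 were higher and 0 lower at an unadjusted p under 0.05, and the median was 0.07 (0.02 without diabetic replicate 2, 0.04 without nondiabetic replicate 3). That median was 0.01 with quantile normalization and 0.18 with median centring. Pdk4, the kinase that shuts pyruvate dehydrogenase, was 288, 234 and 195 in nondiabetic and 483, 828 and 303 in diabetic arrays, a difference of 1.07 ± 0.33 (adjusted p = 0.245), with no overlap, while another, dimmer probe set gave -1.28 ± 0.72. Respiratory chain and ATP synthase genes lay above 0 in 60 of 68 members, by a median of 0.08 (0.03 without diabetic replicate 2 and 0.05 without nondiabetic replicate 1). None of them was called, 1 was higher and 0 lower at an unadjusted p under 0.05, and 11 had no overlap in the higher direction (16.2%). The median of this respiratory chain list was 0.01 with quantile normalization and 0.19 with median centring. Glycolysis, gluconeogenesis and polyol genes had a median of 0.03 over 25, which was -0.01 with quantile normalization. It was 0.02 without nondiabetic replicate 1, -0.01 without nondiabetic replicate 3, -0.02 without diabetic replicate 2 and 0.05 without diabetic replicate 3. None was called, 1 was higher and 2 lower at an unadjusted p under 0.05. Eno1, enolase, had 20401, 21926 and 19596 in nondiabetic and 15898, 17597 and 15479 in diabetic arrays (-0.34 ± 0.07, adjusted p = 0.0985), and Ldha, lactate dehydrogenase, 3134, 3046 and 3214 and 3712, 4727 and 3797 (0.37 ± 0.10, adjusted p = 0.162).

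Genes that make sterols and fatty acids lay below 0 in 23 of 30 members. Of the 30, Tm7sf2 rose and none fell, 3 had no overlap higher (10.0%) and 10 lower (33.3%), and the median was -0.19, between -0.23 and -0.15 whichever of the 6 arrays was left out. Dhcr7, the last reductase of cholesterol synthesis, gave 886, 759.6 and 1329 in nondiabetic and 3035, 1621 and 1747 in diabetic arrays (1.09 ± 0.24, adjusted p = 0.101). The other member without overlap in the higher direction, named after its values were seen, was Fdft1, the squalene synthase, at 1058, 1269 and 1373 against 1824, 1384 and 1583 (0.37 ± 0.17, adjusted p = 0.44). The desaturases of polyunsaturated fatty acids were lower in every diabetic array, Fads1 at 3148, 3438 and 2627 against 2190.0, 1841 and 1827 (-0.65 ± 0.20, adjusted p = 0.229) and Fads2 at 569.8, 589 and 573 against 424, 479.5 and 387 (-0.43 ± 0.12, adjusted p = 0.206). Acly, which makes cytosolic acetyl-CoA from citrate, differed by -0.38 ± 0.09 (adjusted p = 0.146).

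Amino acid and one-carbon catabolism leaned higher. Baat, Kmo and Bhmt rose, 65 of 68 members were not called, 25 had no overlap higher (36.8%) and 3 lower (4.4%), and the median was 0.18, between 0.15 and 0.24 with each of the 6 arrays left out. Ftcd, which takes the formimino group of histidine breakdown into the folate pool, was 166, 272 and 583 in nondiabetic and 1474, 869 and 813 in diabetic arrays (1.77 ± 0.36, adjusted p = 0.0724). Its nondiabetic arrays spread widely, and nondiabetic replicate 3 lay nearest the diabetic ones. Without nondiabetic replicate 3, Ftcd was called at 2.25 ± 0.27 (adjusted p = 0.00724). Amt of the glycine cleavage system was 2882, 2656 and 2212 against 3755, 4756 and 3636 (0.65 ± 0.13, adjusted p = 0.0724).

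Detoxifying and antioxidant genes overlapped in their called members. Akr1b8 and Gsta3 rose and belong to both lists. Of 61 cytochrome P450 and conjugating enzymes, 12 had no overlap higher (19.7%) and 2 lower (3.3%), with a median of 0.19 that was 0.11 without nondiabetic replicate 1. Sult1a1, a sulfotransferase of phenols, was 557, 664 and 766 against 1818, 1289.9 and 1206 (1.11 ± 0.23, adjusted p = 0.075). Cyp26b1, which breaks down retinoic acid, was 197, 218 and 207 against 584, 1196 and 300.0 (1.52 ± 0.35, adjusted p = 0.116), with diabetic replicate 2 the highest. Cyp2e1, which oxidises ethanol and ketones, differed by 0.73 ± 0.18 (adjusted p = 0.132). Of 48 antioxidant genes, 9 had no overlap higher (18.8%) and 1 lower (2.1%), and the median was 0.16 (0.13 to 0.17 with each array left out). The quinone reductase Nqo1 was 266, 249 and 246 against 459.6, 324 and 331 (0.53 ± 0.16, adjusted p = 0.23), and Cyba, a subunit of the superoxide-making NADPH oxidase, was lower at 5915, 6770.2 and 6119.5 against 3960.0, 5190.3 and 4176 (-0.50 ± 0.10, adjusted p = 0.0593). Txnip, a thioredoxin inhibitor known to follow glucose, overlapped between groups (5932, 4986 and 4100.2 against 7238, 8975 and 5775, 0.54 ± 0.16, adjusted p = 0.228).

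The list of p53 targets and DNA damage genes held 3 called genes of 38, Dnase1, Ccng1 and Mgmt (a nuclease, a p53 target and a DNA repair enzyme), all of which rose. In the list, 16 had no overlap higher (42.1%) and 1 lower (2.6%), and the median was 0.14, which was 0.22 without nondiabetic replicate 2 and 0.12 to 0.17 without any other of the 6 arrays. Plk2, a kinase induced by p53, was 137, 193 and 148 against 336, 199.8 and 294 (0.78 ± 0.21, adjusted p = 0.174). Cdkn1a, the cell cycle inhibitor p21, was 204, 200.1 and 193 against 287, 345 and 370.3 (0.74 ± 0.22, adjusted p = 0.23). Of 48 cell cycle and replication genes, Nek6 alone was called, and the median of -0.08 was -0.12, -0.03 and -0.05 without nondiabetic replicate 2, nondiabetic replicate 3 and diabetic replicate 2.

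Genes of the circadian clock lay on both sides of 0, with 11 above and 10 below. None of 21 was called by limma, 8 were higher and 3 lower at an unadjusted p under 0.05, and 9 had no overlap higher (42.9%) and 2 lower (9.5%). Dbp, a clock output factor, was 407, 695 and 412 in nondiabetic and 844, 1377 and 794 in diabetic arrays (0.99 ± 0.25, adjusted p = 0.162). Per1, of the repressor arm of the clock, was 184, 169 and 226 against 369, 379 and 280.0 (0.83 ± 0.17, adjusted p = 0.075). Bhlhe41, another repressor, was 140.2, 222 and 206 against 389, 487 and 416 (1.20 ± 0.29, adjusted p = 0.127), and Npas2, of the activator arm, was lower at 770.5, 486 and 672 against 363, 291 and 450.0 (-0.80 ± 0.19, adjusted p = 0.121). The median of 0.17 was 0.11, 0.07 and 0.10 without nondiabetic replicate 1, nondiabetic replicate 3 and diabetic replicate 2.

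Insulin and insulin-like growth factor (IGF) genes leaned lower, with none of 45 called by limma, 3 higher and 8 lower at an unadjusted p under 0.05, and 2 with no overlap higher (4.4%) and 11 lower (24.4%). The median was -0.08, and -0.03 without nondiabetic replicate 2. Igfbp4, an IGF-binding protein, was 519, 612 and 350.3 in nondiabetic and 204, 304 and 188 in diabetic arrays (-1.08 ± 0.23, adjusted p = 0.0838), and it was called without nondiabetic replicate 3 at -1.31 ± 0.22 (adjusted p = 0.0296). Grb10, an adaptor that dampens the insulin receptor, was 1623, 1421 and 1382 against 989, 1098 and 1122 (-0.46 ± 0.11, adjusted p = 0.119), and Igfbp5 and Igfals, 2 further binding proteins, differed by -0.39 ± 0.10 and -0.69 ± 0.18. Other probe sets of Igfbp5, none of them called, gave -1.11 ± 0.40, 0.25 ± 0.43 and -0.77 ± 0.41. The receptor Insr was higher at 350.3, 319 and 379 against 501, 526 and 396 (0.43 ± 0.15, adjusted p = 0.284). Igf1 itself was 823, 501 and 806 against 416, 14.5 and 388. All diabetic arrays were below the nondiabetic ones, but diabetic replicate 2 was far below the other 2, and the difference of -2.38 ± 0.95 was not called (adjusted p = 0.378).

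The list of tubular injury and repair genes had 3 members that fell, Nrep, Krt7 and Nefm, and none that rose, of 37 tested. Nrep and Nefm are known from neurons and Krt7 is a keratin of the collecting duct, so the called members are not the usual injury markers. Its median was 0.21, 0.13 without nondiabetic replicate 1, and 7 members had no overlap higher (18.9%) and 6 lower (16.2%). Spp1, osteopontin, was 2545, 2625 and 2314 in nondiabetic and 4692, 6023 and 4066 in diabetic arrays (0.96 ± 0.26, adjusted p = 0.184), and the calcium-binding S100a6 differed by 0.50 ± 0.14 (adjusted p = 0.193).

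TGF-beta and bone morphogenetic protein (BMP) genes lay on both sides of 0, with 39 above and 35 below. At an unadjusted p under 0.05, however, 2 were higher and 7 lower. Skil fell and none rose among 74 tested, 5 had no overlap higher (6.8%) and 8 lower (10.8%), and the median of 0.01 lay between -0.01 and 0.01 with each of the 6 arrays left out. Smad7, the inhibitory Smad, was 539, 412 and 389.7 in nondiabetic and 194, 255 and 293 in diabetic arrays (-0.86 ± 0.18, adjusted p = 0.0848). Id3, a target of BMP signals, was 2205, 2045 and 2180.2 against 1221, 1409 and 1528 (-0.63 ± 0.17, adjusted p = 0.184), and Grem1, a secreted BMP inhibitor, was higher at 817, 582 and 729.7 against 959.5, 1143 and 1060.2 (0.58 ± 0.15, adjusted p = 0.176). Cul1, a scaffold of ubiquitin ligases, differed by -0.33 ± 0.07 (adjusted p = 0.101). Extracellular matrix genes had a median of 0.00 over 67, none called by limma, 4 higher and 5 lower at an unadjusted p under 0.05. Lox, which crosslinks collagen, was 131, 107 and 118 against 188, 264 and 269 (1.01 ± 0.28, adjusted p = 0.193), and Col4a4, a collagen chain of the glomerular basement membrane, was 575, 452 and 517 against 304, 269.8 and 431 (-0.64 ± 0.22, adjusted p = 0.293).

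Few members of the immune and stress lists were called. Cxcl11 alone was called among 44 interferon and antigen presentation genes (median 0.07), with 3 higher and 1 lower at an unadjusted p under 0.05. None of 44 chemokine, cytokine, adhesion and complement genes was called by limma, with 5 higher and 3 lower at an unadjusted p under 0.05 (median 0.16, and 0.10 without diabetic replicate 3). Among the latter, the chemokine Ccl5 was 332, 294 and 284 against 208, 166 and 151 (-0.81 ± 0.25, adjusted p = 0.231). Of 49 heat shock and endoplasmic reticulum genes, none was called by limma, 1 was higher and 8 lower at an unadjusted p under 0.05, and 2 had no overlap higher (4.1%) and 6 lower (12.2%). The secreted stress factor Manf was 4108, 3852 and 3106 against 2362, 2204 and 2916 (-0.57 ± 0.14, adjusted p = 0.131). Trib1 alone was called among 30 immediate early genes, of which 4 were higher and 5 lower at an unadjusted p under 0.05, and 4 had no overlap higher (13.3%) and 4 lower (13.3%). Dusp5, a phosphatase that ends MAP kinase signals, was 154, 184 and 387 against 693, 496 and 510.4 (1.33 ± 0.33, adjusted p = 0.136), and Rhob, a small GTPase, was lower at 3216, 2565 and 2592 against 1885, 1991 and 2207 (-0.46 ± 0.12, adjusted p = 0.174). The median of 0.09 was 0.06 or less with any of the 6 arrays left out, down to -0.01 without diabetic replicate 3. Ribosomal proteins had a median of 0.11 over 40, with 0 called by limma, 7 higher and 1 lower at an unadjusted p under 0.05 (0.05 and 0.06 without nondiabetic replicate 1 and diabetic replicate 2). Their median was 0.04 with quantile normalization and 0.22 with median centring.

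Transporters differed by single genes more than by class. Of 41 organic anion and cation carriers, Slco2a1 rose, 9 had no overlap higher (22.0%) and 3 lower (7.3%), and the median was 0.16. Slc10a2, which takes back bile acids, was 206, 237 and 217 in nondiabetic and 310.0, 392.4 and 302 in diabetic arrays (0.60 ± 0.14, adjusted p = 0.125), and Slc51a, a subunit of the basolateral bile acid exporter, differed by 0.68 ± 0.22 (adjusted p = 0.269). Of 42 glucose, amino acid and peptide carriers, Slc27a2, placed in this list as a carrier of fatty acids, was the only call. The glucose carrier of the basolateral side, Slc2a2, was 5138, 4801 and 4204 against 6606, 9298 and 6431 (0.64 ± 0.16, adjusted p = 0.159), while the apical Slc5a2 of the early tubule overlapped between groups (5071, 4379.9 and 4305 against 3359.8, 3588 and 4605, -0.26 ± 0.21). Slc5a11, which carries inositol, differed by 0.41 ± 0.09 (adjusted p = 0.0985). Among 45 sodium, potassium, chloride and water transport genes, Aqp2 was the only call, and Kcne1, a potassium channel subunit, was 346, 305 and 215 against 101, 67.7 and 164 (-1.45 ± 0.37, adjusted p = 0.162). None of 41 acid-base, phosphate, calcium and vitamin D genes was called by limma, with 4 higher and 4 lower at an unadjusted p under 0.05. Cyp27b1, which makes active vitamin D, was 135, 112 and 109.6 against 39.4, 53.2 and 85.8 (-1.07 ± 0.38, adjusted p = 0.318).

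Markers of the cell types in the cortex set limits to these readings, since in bulk tissue fewer cells of a type and less RNA per cell cannot be told apart. The summed signals below follow mainly the brightest probe sets of a list. Examples are Atp6v1g3 in intercalated cells (7312, 6219 and 5700 against 4268, 5703 and 5454) and Lyz2 in macrophages (5991, 6751 and 6138 against 6435, 7589 and 7019). All 10 podocyte markers lay below 0, with a median of -0.22. None was called by limma, 0 were higher and 4 lower at an unadjusted p under 0.05, and their summed signal was 13255 to 13634 in nondiabetic and 10735 to 12371 in diabetic arrays, without overlap. The slit diaphragm protein Nphs1, for example, gave 591, 634 and 570.3 against 378, 483 and 504 (-0.41 ± 0.14, adjusted p = 0.29). In collecting duct principal cells Aqp2 rose, Krt7 fell and the other 7 markers were not called, and the summed signal overlapped (20387 to 23640 against 19205 to 25328). In intercalated cells Slc26a4, the chloride and bicarbonate exchanger pendrin, was 1670.3, 1603 and 1543 against 756, 1080.2 and 1171 (-0.70 ± 0.14, adjusted p = 0.0598), but 3 of the 6 markers tested lay above 0 (Slc4a1 at 0.25, Rhcg at 0.16 and Foxi1 at 0.13) and the median was -0.10. None was called by limma, 0 were higher and 3 lower at an unadjusted p under 0.05, and the summed signal was 10050 to 12596 against 7843 to 10044, nearly touching. Early proximal tubule markers overlapped (98366 to 111081 against 101516 to 120382). Macrophage markers were 8233 to 9149 against 8863 to 10124, with 7 of 8 tested above 0, none called by limma and 0 past an unadjusted p of 0.05. Of lymphocyte markers only 1 of 7 on the array and of neutrophil markers only 1 of 3 passed the limit on dim signals. That 1, S100a9, was dim but without overlap, at 54.1, 47.6 and 37.4 against 97.3, 96.4 and 76.6 (0.97 ± 0.38, adjusted p = 0.375). Of the fat cell markers 4 of 9 (Plin1, Lep, Cfd and Ucp1) lay under the limit and all 5 tested lay above 0, with a median of 0.17, none called by limma and 1 higher and 0 lower at an unadjusted p under 0.05. That 1 was Fabp4, a fatty acid binding protein, at 1.75, 80.8 and 85.5 against 336, 206 and 230.3 (3.45 ± 1.11, adjusted p = 0.264), where nondiabetic replicate 1 was near the floor. Adipoq, the hormone adiponectin, overlapped (158, 162 and 203 against 168, 142 and 245), as did the summed signal of the fat cell markers (1627 to 2660 against 2133 to 3055). The part of cell composition in the gene differences was not tested.

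Many of the calls depended on single arrays. With 1 of the 6 arrays left out, the count of called probe sets was 8 without nondiabetic replicate 1, 5 without nondiabetic replicate 2 and 115 without nondiabetic replicate 3. It was 11, 15 and 43 without diabetic replicates 1, 2 and 3. Without diabetic replicate 1, whose label names the vehicle pellet, 10 of the 11 calls were among the 57. All 57 kept their direction in each of the 6 fits, but 5 probe sets were called in every one and 9 in none. The 115 calls without nondiabetic replicate 3 (65 higher, 50 lower) held 46 of the 57 and 69 others. Among those others were Dhcr7 (1.32 ± 0.24), Per1 (0.95 ± 0.18), Gamt of creatine synthesis (0.86 ± 0.14), Cth of cysteine synthesis (1.04 ± 0.18) and Amacr and Hacl1 of branched fatty acid breakdown (0.66 ± 0.09 and 0.92 ± 0.14), of which the last 4 were named after their values were seen. In each of these higher genes nondiabetic replicate 3 was the highest array of its group. Lower genes were among the others too, such as Igfbp4 (-1.31 ± 0.22) and Atp6v0b (-0.55 ± 0.10).

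**Figure D3:**
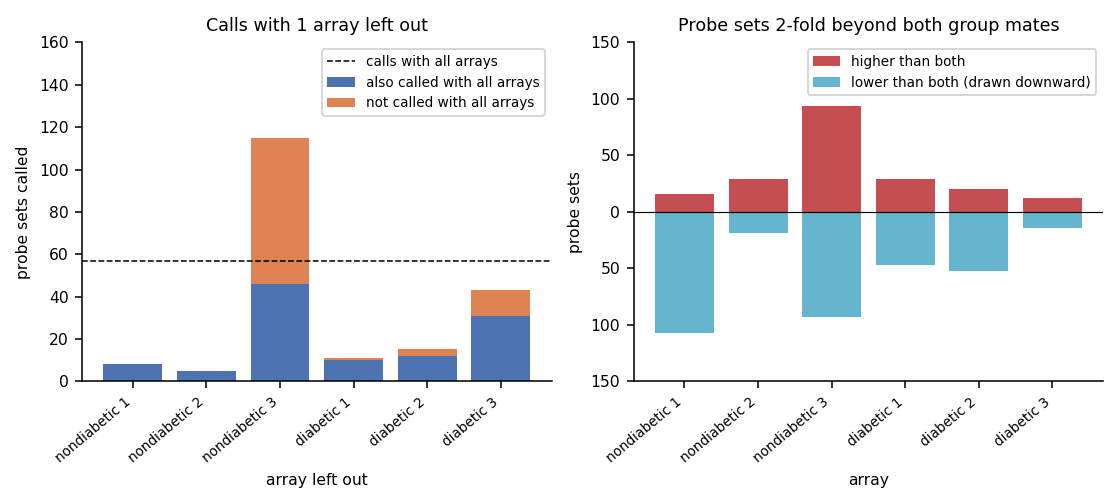
Left, number of probe sets called with each of the 6 arrays left out, split into those also called with all arrays (blue) and others (orange), with the 57 calls of all arrays as a dashed line. Right, number of probe sets at least 2-fold above (red, upward) or below (blue, downward) both other arrays of the same group. The fit without nondiabetic replicate 3 has the most calls (115), and nondiabetic replicates 1 and 3 have the most probe sets beyond their mates (123 and 187).

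Nondiabetic replicates 1 and 3 stood further from their group mates than the other 4 arrays. Of 12956 probe sets with a mean signal of at least 200, 187 were at least 2-fold above or below both group mates in nondiabetic replicate 3 and 123 in nondiabetic replicate 1, where 107 were lower. Nondiabetic replicate 2 had 48 such probe sets and the diabetic arrays 76, 72 and 26. The 6 genes with the widest gap in nondiabetic replicate 1 were all lower there. Rbp4, the retinol carrier of plasma, gave 4.37, 256 and 391 in nondiabetic and 878, 1555 and 506 in diabetic arrays, and the histamine-degrading Hnmt 24.9, 1239 and 4239 and 3768, 952 and 2505. Cidec, a protein of lipid droplets, gave 4.49, 213 and 569 and 953, 258 and 519, and Dhrs7l1, of the dehydrogenase and reductase family, 104, 4847 and 12425 and 12294, 4353 and 9225. In all of these nondiabetic replicate 1 was the lowest array by far and nondiabetic replicate 3 the highest of its group. Slc7a13, a cystine carrier of the straight segment of the proximal tubule, gave 332, 11113 and 19612 and 17432, 9365 and 16018, and Slco1a6, an organic anion carrier, 60.4, 1384 and 4616 and 5369, 1997 and 3931, with the same order of the nondiabetic arrays. Diabetic replicate 2 was the lowest diabetic array in each of the 6 but Rbp4, where it was the highest.

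Of the 8 straight segment markers, nondiabetic replicate 1 was the lowest of its group in 7 (all but Cyp4b1, where it was the highest), and diabetic replicate 2 the lowest of its group in 5. Those 5 were Slc7a13, Slc22a7, Slco1a1, Slc7a12 and Mme. Slco1a1, an androgen-dependent carrier, gave 44.8, 722 and 2826 and 2148, 186 and 1121, and Mme, the peptidase neprilysin, 532, 2073 and 5206 and 7461, 4042 and 5543. The 3 that went otherwise were Acsm3, an acyl-CoA synthetase, with its highest signal in diabetic replicate 2 (2997, 8103 and 4006 and 4899, 12081 and 3538), the glucose carrier Slc5a1 (38.9, 57.3 and 47.9 and 84.8, 89.7 and 109) and Cyp4b1 (765, 585 and 542 and 655, 670.2 and 508). Among the 11 sex hormone receptors and sex-biased genes, nondiabetic replicate 1 was the lowest of its group in 7 and diabetic replicate 2 in 7, such as Odc1, the first enzyme of polyamine synthesis, with 2172, 3447 and 7158 and 10334, 4896 and 8834. This list shares members with the straight segment markers, among them Mme and Slc22a7, so its counts are not separate from theirs. The 8 straight segment markers summed to 4995, 24239 and 38207 in the nondiabetic and 35846, 27144 and 29746 in the diabetic arrays. That sum follows its brightest probe sets, such as Slc7a13 (332, 11113 and 19612 and 17432, 9365 and 16018). This order of arrays was not limited to the straight segment. Summed markers of the thick ascending limb gave 25999, 33991 and 39363 and 35240.5, 25189.5 and 32336. Those of red cells gave 9544, 16937 and 18713 and 16593, 8902 and 14484. Inner medulla and thin limb markers gave 1818, 3062 and 4944 and 4783, 3359 and 3723, and fat cell markers had the same order. The sums of other lists, such as podocytes and the early proximal tubule, did not. None of the 8 markers was called at 10 weeks by limma, 3 were higher and 0 lower at an unadjusted p under 0.05, and the median difference of 0.88 came with a wide spread. The list of sex hormone receptors and sex-biased genes had a median of 0.11 over 11, which was -0.03 without nondiabetic replicate 1, 0.51 without nondiabetic replicate 3, 0.29 without diabetic replicate 2 and 0.18 without diabetic replicate 3. The part of the straight segment in the other differences was not tested.

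**Figure D4:**
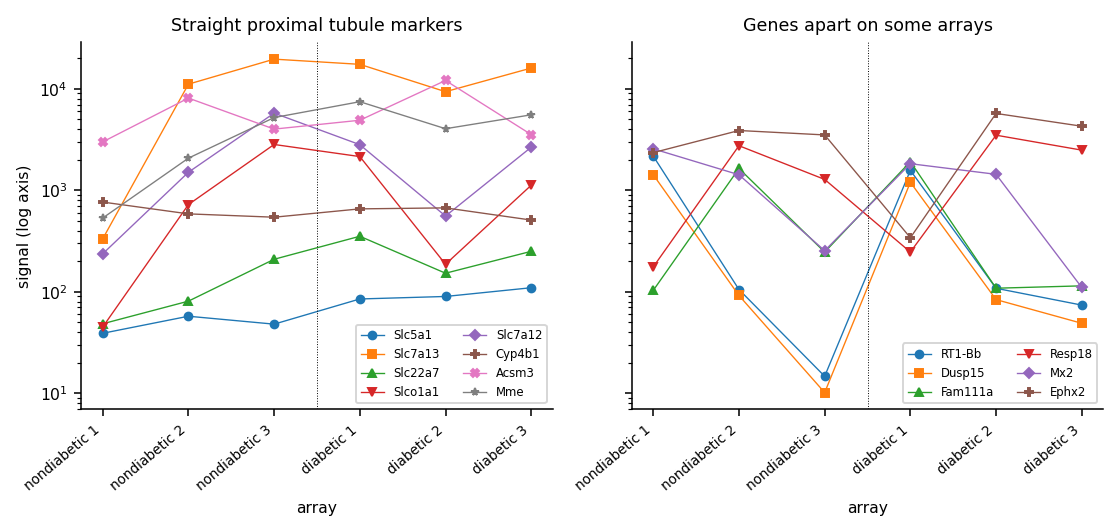
Signal on a log axis of the 8 markers of the straight proximal tubule (left) and of 6 genes that stood apart on single arrays (right), for each of the 6 arrays, with nondiabetic arrays left of the dotted line and diabetic arrays right of it, and lines only joining the points of a gene. Slc7a13, Slco1a1 and Mme are lowest in nondiabetic replicate 1, and RT1-Bb and Dusp15 are high in replicate 1 of both groups and low on the other 4 arrays.

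A few genes were bright on some arrays and nearly dark on others, without regard to diabetes. RT1-Bb, a class II antigen-presenting molecule of the rat, gave 2170.4, 105 and 14.7 in nondiabetic and 1570.2, 108 and 73.7 in diabetic arrays. Dusp15, a phosphatase, gave 1421, 91.7 and 10.1 and 1198, 83.6 and 48.8. Both were high in replicate 1 of each group and low on the other 4 arrays. Resp18, a secretory pathway protein, was low on those same 2 arrays (176, 2748 and 1279 and 246, 3490.1 and 2486). Fam111a gave 103, 1639 and 246 and 1913, 108 and 114, Ephx2, the soluble epoxide hydrolase, 2349, 3882 and 3510.3 and 340.3, 5717 and 4278, and the interferon-induced Mx2 2561, 1421 and 254 and 1827, 1435 and 110.0. None of these 6 genes was among the 45 called. Gadd45g, a stress-induced gene, was low in nondiabetic replicate 2 and all diabetic arrays (1535, 311 and 2007 and 395, 319 and 281).

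At 20 weeks, with other rats and arrays but the same pooled spread, the genes called at 10 weeks mostly moved alike. Of the 57 probe sets, 42 (73.7%) were called at 20 weeks in the same direction. In all, 529 of the 18625 probe sets tested (2.84%) were called at 20 weeks, so that the 42 are 7.94% of the 20-week calls. With 1 estimate of the spread for both ages, a probe set of small spread is more readily called at both. Baat gave 126, 70.3 and 103 in nondiabetic and 753, 938 and 2076 in diabetic arrays at 20 weeks (3.55 ± 0.39), and Nrep 4841, 5142 and 6540.1 and 1158, 1733 and 1256 (-2.00 ± 0.19). Of the 45 genes, 23 had the larger difference at 10 weeks and 22 at 20 weeks. The 45 were picked by their 10-week difference, so this split cannot show whether the effect is equal at both ages. The 15 probe sets not called at 20 weeks included Trib1 (-0.21 ± 0.26, adjusted p = 0.734), Tmem252 (-0.12 ± 0.17, adjusted p = 0.78) and Alpl (0.31 ± 0.12, adjusted p = 0.198).

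**Figure D5:**
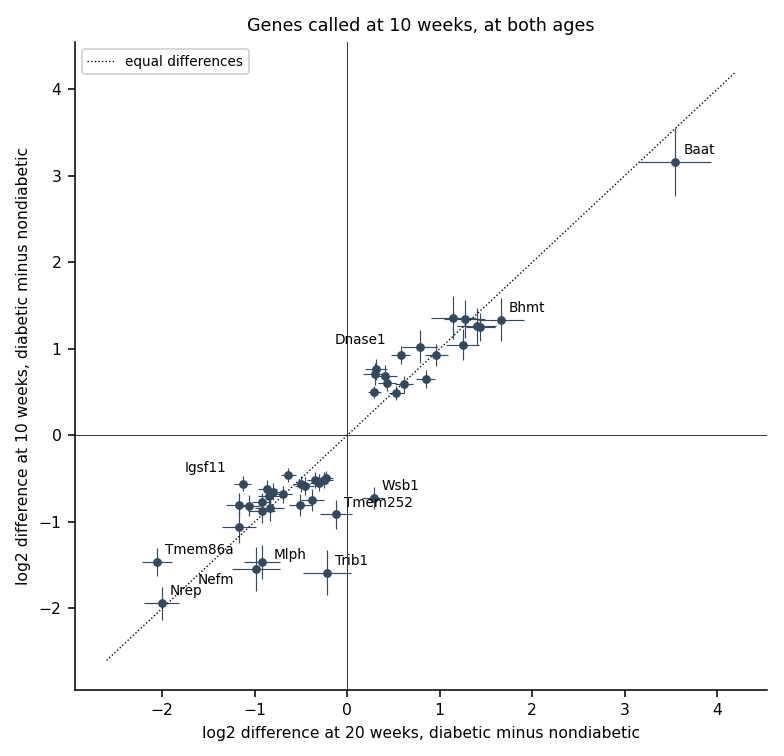
Log2 difference of the 45 genes called at 10 weeks, at 20 weeks (horizontal) and at 10 weeks (vertical), diabetic minus nondiabetic, with bars of 1 SE from the fit. Most points lie near the dotted line of equal differences, Trib1 and Tmem252 lie close to 0 at 20 weeks, and Wsb1 (-0.72 at 10 weeks and 0.29 at 20 weeks) is the only gene on opposite sides of 0.

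The difference between the ages itself was tested as the 10-week minus the 20-week difference. No probe set was called by limma (0%), the smallest adjusted p was 0.0979, and 1480 of 18625 were past an unadjusted p of 0.05, among them 10 of the 45 genes. The 45 were picked by their 10-week difference, which is a part of this contrast, so their share cannot be read against that of all probe sets. Of those 10 genes, Wsb1 had the smallest p. It fell at 10 weeks from 2567, 2088 and 1846 to 1216, 1279 and 1412 and gave 2122, 1779 and 2212 and 2433, 2302 and 2708 at 20 weeks, a difference between ages of -1.01 ± 0.18 (adjusted p = 0.225). Probe set 1378163_at was 305, 221 and 111 in nondiabetic and 297, 328 and 334 in diabetic arrays at 20 weeks, where its difference was 0.71 ± 0.30, and the ages differed by 2.55 ± 0.43 (adjusted p = 0.201). The smallest p-values of all belonged to genes not called at 10 weeks: Tnfrsf21, a death receptor (0.31 ± 0.09 at 10 and -0.60 ± 0.09 at 20 weeks, with another probe set at 0.32 ± 0.09 and -0.52 ± 0.09), Slc25a15, the mitochondrial ornithine carrier (0.39 ± 0.10 and -0.61 ± 0.10), and Pter (-0.19 ± 0.13 and -1.41 ± 0.13), each with an adjusted p of 0.0979. Clock genes were among the 10 smallest too. Dbp was 0.99 ± 0.25 at 10 weeks and -0.98 ± 0.25 at 20 weeks (adjusted p of the difference 0.26), Bhlhe40 -0.38 ± 0.12 and -1.30 ± 0.12, and Per2 -0.13 ± 0.19 and -1.43 ± 0.19 (adjusted p = 0.269 and 0.38). None of these differences between ages passed the test.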

How the data were processed

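Biotin-labelled RNA of each sample was hybridised to 1 array in 1 colour, per the labels' protocols. The deposited values are linear signals (intensity) made by the authors with GCOS, per the submitters' processing notes. Each array's mean signal after trimming 2% at each end was 500.2, so the arrays had been scaled alike, a shift of most transcripts could not be seen, and the values were used as deposited.

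Signals under 1 (424 values) were set to 1 before log2. The 57 control probe sets and the dimmest 40% (geometric mean under 70.9) were left out. Names came from the array annotation, updated through RefSeq gene tables: 13974 of the 18625 probe sets tested named 1 gene. A model of 4 group means was fitted to all 12 arrays with limma 3.58.1 in R 4.3.3 (8 residual degrees of freedom, eBayes with an intensity trend), two-sided, with Benjamini-Hochberg adjustment over all tested probe sets. The number of arrays limits the precision. The code was tested on simulated data. Promoter sequences came from RefSeq.

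Named genes were, by rule, each called gene (its smallest-p probe set), the 5 smallest p in each list, cell type markers, the 10 smallest p for the ages, and the 6 largest departures of each array. The members and lists were chosen with earlier results of these data known. Alternatives were other scalings, filters, offset, variance settings, array weights, fewer arrays and a replicate term.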

Additional observations from a re-analysis of the deposited data

How the results depend on the processing

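The 57 calls at 10 weeks were 54 with quantile normalization, 43 with median centring, 45 with no filter and 70 with a stricter filter on dim probe sets, 59 with an offset of 16 before log2, 78 with robust variances and 65 with array weights. They were 7 without the intensity trend and 9 with the arrays of 10 weeks alone. With 1 array left out the counts ran from 5 to 115, both set by 10-week nondiabetic arrays, and leaving out a 20-week array gave 32 (20-week diabetic replicate 2) to 48. Replicate numbers are not stated to mark a shared litter or day, and deviations of same-numbered 10-week arrays correlated at 0.02, 0.15 and 0.13, with not every array closest to its own number. A replicate block gave 32 calls in the fit of all arrays (28 of the 57) and 46 with the 10-week arrays alone (18 of the 57). The difference between the ages gave 0 to 2 calls with an array left out, 2 without 20-week nondiabetic replicate 1 and 2 without replicate 3 of that group, and 0 in the other settings run. Over the settings no called gene changed direction, and 422 of 1034 single values fell out of the calls. Among list members not called, 33 values passed and 1 turned, Slc22a8 (0.11), to -0.052 without 10-week diabetic replicate 2, the lowest of its values with an array left out (highest 0.19). Taken relative to the median of all probe sets, which median centring moved by 0.11, 19 of 30 list medians kept their side in all settings. The cause of these changes was not tested. Dim signals near the background limit the sizes of folds, such as those of Baat, Trib1 and probe set 1378163_at.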

Other observations

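Several smaller classes add single genes at 10 weeks, most of them not called. In some of these the groups overlapped or nearly touched. Among 39 genes of steroid, retinoid and thyroid hormone handling none was called by limma, but 12 were higher and 2 lower at an unadjusted p under 0.05, and 12 had no overlap in the higher direction (30.8%, against 9.04% of all genes), with a median of 0.06 (0.14 without 10-week diabetic replicate 1). Stra6, the retinol carrier, gave 544, 776 and 556 in nondiabetic and 1083, 2196 and 1284 in diabetic arrays (1.23 ± 0.38, adjusted p = 0.249), and Rdh5, a retinol dehydrogenase, 489.6, 580.4 and 805 and 871, 975 and 835 (0.54 ± 0.16, adjusted p = 0.229). Other probe sets, none of them called, gave 0.80, 1.44 and 0.75 for Stra6 and -0.08 ± 0.33 for Rdh5. Hsd11b2, which shields the mineralocorticoid receptor from corticosterone, gave 6048, 5509.9 and 4939 and 2506, 3926 and 5047 (-0.58 ± 0.19, adjusted p = 0.264), and its groups overlapped through diabetic replicate 3.

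Among 20 prostaglandin and leukotriene genes Slco2a1 rose, and Ptgds, which makes prostaglandin D, was lower in every diabetic array (3353, 2243 and 1806 against 908, 1218 and 742, -1.35 ± 0.40, adjusted p = 0.226). Among 26 renin-angiotensin, kallikrein and peptidase genes Cpm fell, and the angiotensin receptor Agtr1a gave 2693, 3096 and 2272 against 1904, 2242 and 1702 (-0.46 ± 0.15, adjusted p = 0.276, and -0.49 ± 0.18 for another probe set). That list's median of 0.17 was 0.05 without 10-week nondiabetic replicate 1. None of 58 lysosome and V-ATPase genes was called by limma, with 2 higher and 5 lower at an unadjusted p under 0.05 and 8 with no overlap in the lower direction (13.8%, against 8.96% of all genes), among them the proton pump subunit Atp6v0b (3226, 2826 and 2252 against 2090.2, 2187 and 1918, -0.41 ± 0.12, adjusted p = 0.214). Another probe set of Atp6v0b gave 0.04 ± 0.23. None of 38 proteasome genes was called, with 3 higher and 0 lower at an unadjusted p under 0.05.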
